A study of Caenorhabditis elegans with 15 samples.

Results

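The gonadal innexin genes of Caenorhabditis elegans are inx-8, inx-9, inx-14, inx-21 and inx-22. Their transcripts were followed through immunoprecipitations (IPs) of the RNA-binding protein GLD-1. Members were the probe sets of an Affymetrix C. elegans array whose platform annotation names one of these genes. That gave 6 of the 22548 probe sets that are not array controls, for 5 of the 17118 genes that have a probe set of their own. The inx-21 gene had 2 probe sets and each other gene had 1, and no probe set named a member together with another gene.

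Innexins are the proteins from which invertebrates build gap junctions, the channels that let small molecules pass directly between touching cells. In the hermaphrodite gonad, INX-8 and INX-9 form the hemichannels of the somatic sheath cells and the distal tip cell, which face the germ line. On the germ cell side INX-14 pairs with INX-21 in junctions needed for germ cells to proliferate, and with INX-22 in junctions that hold oocytes back from meiotic maturation until the sperm signal arrives. GLD-1 is a germline protein of the STAR family that binds messenger RNAs and represses their translation.

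Whole young adult worms were used throughout, so germ line and soma were lysed together. The tagged strain was mutant for the endogenous gene, as gld-1(q485), and made its GLD-1 from ozIs2, an integrated gld-1::gfp::flag transgene, with no MYC tag anywhere. Set 1 compared 3 anti-FLAG with 3 anti-MYC IPs of this strain. Set 2 compared 3 anti-FLAG IPs of the tagged strain with 3 of wild-type N2 worms, whose GLD-1 has no tag. The last 3 arrays held input, the unprecipitated RNA of the tagged strain, and the labels tie the inputs to neither set. The labels do not say whether the 3 replicates of a group came from separate cultures, so p-values measure the spread between these samples, which may be technical.

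Every value below is the log2 signal of a probe set as the authors deposited it, after GCRMA, a method that subtracts background and summarises the probes of a probe set. Levels of different probe sets are not comparable with each other. Each array had its own lowest value, 2.46 to 2.53 on the IP arrays and 2.21 to 2.28 on the inputs, which many probe sets shared. A probe set within 0.1 of it is called here at the lowest value. In set 1, 550 to 2170 probe sets reached log2 5 in the FLAG IPs and 194 to 820 in the MYC IPs. In set 2, 1265 to 1784 did so in the tagged and 221 to 435 in the N2 IPs, and 7632 to 9352 did so in input. As a check of the labels, gld-1 RNA (174247_at) read 8.29, 9.63 and 9.46 in the FLAG IPs against 2.98, 3.27 and 4.69 in the MYC IPs of set 1. In set 2 it read 10.49, 10.13 and 9.90 in the tagged IPs against 5.32, 4.88 and 3.67 in the N2 IPs. Both comparisons asked which transcripts come down with tagged GLD-1. In set 2 the strains differ in more than the tag, and no input of N2 was measured. Recovery therefore cannot be told apart there from a different transcript level in the 2 strains, for gld-1 too. Both comparisons were tested with limma on the 12 IP arrays, with p-values adjusted by Benjamini and Hochberg over all 22548 probe sets and called under 0.05. The second gld-1 probe set, 193805_at, had a low input mean of 3.395 and was called in neither set. Its changes were 0.35 and 0.51 (limma adjusted p = 0.322 and 0.144).

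Of the 5 genes, inx-22 was recovered with tagged GLD-1 in both sets and inx-14 in set 2. The inx-21, inx-8 and inx-9 transcripts, although present in input, stayed at or just above the lowest value of every IP array. Such signals were common, as 54.24 to 67.75% of probe sets were at the lowest value on the IP arrays. The inx-9 input mean was itself low, at 4.41. Called higher were 1 of 5 genes in set 1, where 2.44% of all 17118 genes were called higher, and 2 of 5 in set 2, where 5.56% were. The 1 gene called in both sets compares with 2.36% of all genes. Among the 6542 genes whose input mean was log2 5 or more, 6.34% and 14.2% were called higher in sets 1 and 2. No member was called lower (0.0701% and 0.169% of all genes).

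**Figure D1:**
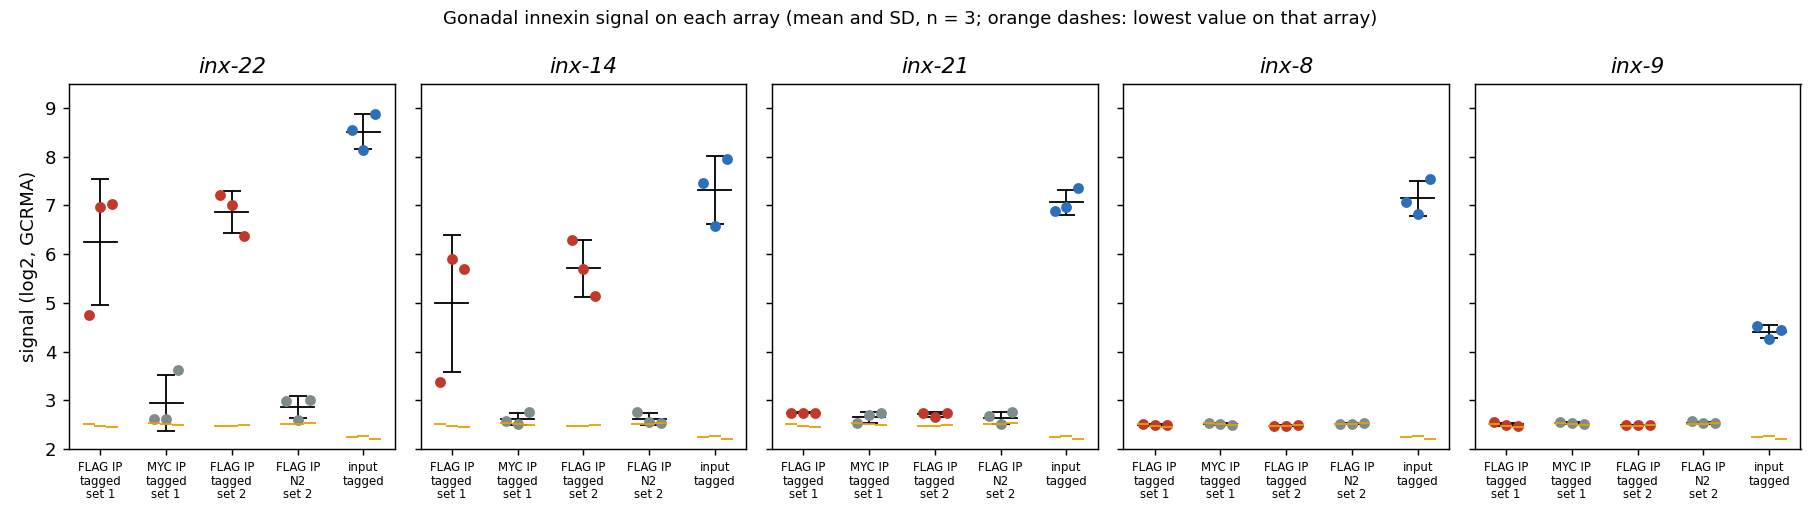
Signal of the 5 gonadal innexin genes on each of the 15 arrays. Each panel is 1 gene, points are arrays in the order of their replicate numbers, the vertical axis is the deposited log2 signal, bars are mean and SD (n = 3), and orange dashes mark the lowest value of that array. For inx-22 and inx-14 every tagged FLAG IP lies above every control IP, while for inx-21, inx-8 and inx-9 only the inputs lie well above the dashes.

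The inx-22 gene (Y47G6A.2, chromosome I, probe set 184702_at) encodes the germ cell innexin of the junctions that restrain oocyte maturation. In set 1 its signal was 4.76, 6.97 and 7.02 in FLAG replicates 1, 2 and 3, against 2.62, 2.61 and 3.62 in MYC replicates 1, 2 and 3. FLAG replicate 1 was the lowest of its group, MYC replicate 3 was the highest of the controls, and the groups did not overlap. Their difference was 3.30 ± 0.58 (SE of the limma fit) or 9.85-fold, with an adjusted p of 0.0211.

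In set 2 inx-22 read 7.22, 7.002 and 6.38 in the tagged IPs against 2.98, 2.60 and 3.01 in the N2 IPs. The 3 tagged arrays were close to each other and far above all 3 N2 arrays. The difference was 3.999 ± 0.58 or 15.99-fold in the limma fit (adjusted p = 0.0044). Every FLAG IP array above every control array was found for 5.98% of all genes in set 1 and 14.9% in set 2, and in both sets together for 5.06%.

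The call of inx-22 in set 2 held under each of the 22 alternatives, the largest adjusted p being 0.0255. That of set 1 was lost when MYC replicate 1 or 2, or FLAG replicate 2 or 3, was left out (limma adjusted p = 0.104, 0.1, 0.103 and 0.095). It was also lost with the spread estimated on set 1 alone (0.361) and with arrays centred on ribosomal protein genes (0.126). The set 1 and set 2 differences of inx-22 fell to 1.77 and 1.94 after cyclic loess and 2.40 and 2.49 after quantile normalization.

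The inx-14 gene (F07A5.1, chromosome I) encodes the germ cell innexin shared by both kinds of germ line hemichannel. Its only probe set, 191255_s_at, carries the array maker's suffix for probes that match more than one transcript. In set 1 it read 3.38, 5.91 and 5.69 in FLAG replicates 1, 2 and 3, against 2.59, 2.52 and 2.75 in MYC replicates 1, 2 and 3. The groups did not overlap, but FLAG replicate 1 lay much nearer to the controls than to the other FLAG arrays. The difference was 2.37 ± 0.59, 5.17-fold, and missed the threshold (limma adjusted p = 0.0949). Without FLAG replicate 1 the difference was 3.18 and called (limma adjusted p = 0.000273). Probe sets called higher in set 1 then rose from 543 to 2090. Without any other set 1 array inx-14 was not called (limma adjusted p = 0.168 to 0.364). Of the 22 alternatives, 5 called inx-14 in set 1. FLAG replicate 1 had the lowest median signal of ribosomal protein genes among the 12 IP arrays, 5.75. Those medians spanned 5.75 to 9.85 in the FLAG IPs of set 1 and 6.51 to 9.40 in the MYC IPs.

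In set 2 inx-14 read 6.30, 5.69 and 5.14 in the tagged IPs against 2.77, 2.56 and 2.53 in the N2 IPs. All 3 tagged arrays stood far above the N2 arrays. The difference was 3.09 ± 0.59, 8.52-fold (limma adjusted p = 0.0163). The call was lost without any of N2 replicates 1, 2 and 3 and tagged replicates 1 and 2 (limma adjusted p = 0.0515, 0.0638, 0.0678, 0.0777 and 0.0585) and with ribosomal protein centring (0.196). Control IPs were at the lowest value on 2 of 3 MYC and 2 of 3 N2 arrays, so the folds of inx-14 may be lower bounds. The inx-22 probe set was at the lowest value on 2 of 3 MYC arrays and 1 of 3 N2 arrays.

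The set 1 and set 2 differences of inx-22 and inx-14 were not shown to differ. Set 1 minus set 2 was -0.70 ± 0.82 for inx-22 and -0.72 ± 0.84 for inx-14 (limma adjusted p = 0.997 each). Across all probe sets limma called 0 for that contrast (0% of 22548), with 133 higher and 222 lower at an unadjusted p under 0.05. When labels were permuted within each set, the mean of both differences was 3.65 for inx-22 and 2.73 for inx-14, with an exact two-sided p of 0.005 each. That is the smallest of the 400 labellings, and 5 genes were tested in this way. For 1 set alone, an exact test of 3 arrays against 3 cannot go below p = 0.1.

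The inx-21 gene (Y47G6A.1) encodes the INX-14 partner of the junctions for germ cell proliferation. It is the direct neighbour of inx-22 in the RefSeq annotation of WBcel235. Probe set 184609_at read 2.75, 2.75 and 2.73 in the FLAG IPs and 2.53, 2.70 and 2.74 in the MYC IPs of set 1. In set 2 it read 2.75, 2.65 and 2.73 in the tagged IPs and 2.67, 2.51 and 2.76 in the N2 IPs. The groups overlapped in both sets, and no IP array was more than 0.28 above its own lowest value. The differences were 0.09 ± 0.07 (adjusted p = 0.433) and 0.07 ± 0.07 (adjusted p = 0.514) in the limma fit. The second inx-21 probe set, 175499_s_at, read 2.52 to 2.71 over the 12 IP arrays, with differences of 0.03 and -0.02 (limma adjusted p = 0.684 and 0.794).

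The inx-8 gene (ZK792.2, chromosome IV) encodes a sheath cell innexin, and inx-9 (ZK792.3), its direct neighbour, encodes the other. Probe set 190835_at of inx-8 read 2.52, 2.48 and 2.49 in the FLAG IPs and 2.53, 2.52 and 2.49 in the MYC IPs. In set 2 it read 2.47, 2.48 and 2.49 in the tagged IPs and 2.51, 2.51 and 2.53 in the N2 IPs. These 12 values were at most 0.03 above the lowest value of their array. Differences were -0.02 ± 0.01 in set 1 and -0.04 ± 0.01 in set 2 (limma adjusted p = 0.403 and 0.144).

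Probe set 190365_at of inx-9 read 2.55, 2.50 and 2.47 in the FLAG IPs and 2.55, 2.54 and 2.51 in the MYC IPs. In set 2 it read 2.49, 2.50 and 2.49 in the tagged IPs and 2.57, 2.53 and 2.53 in the N2 IPs. Differences were -0.03 ± 0.02 and -0.05 ± 0.02 (limma adjusted p = 0.449 and 0.144). In set 2 every tagged array lay below every N2 array for both inx-8 and inx-9, as it did for 42.3% of all genes, since the lowest value itself was 2.47 to 2.49 on the tagged and 2.51 to 2.53 on the N2 arrays. The exact test over both sets gave a mean difference of -0.03 for inx-8 (exact p = 0.01) and -0.04 for inx-9 (exact p = 0.03). With each array's lowest value subtracted these became 0.005 (exact p = 0.7) and -0.005 (exact p = 0.75). For inx-21 the mean difference was 0.08 (exact p = 0.165), and 0.11 (exact p = 0.03) with the lowest values subtracted.

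The 5 genes were compared with each other in all 10 pairs, by permuting array labels within each set on the array-by-array difference of the pair. The change of inx-22 exceeded those of inx-21, inx-8 and inx-9 by 3.57, 3.68 and 3.69 on the log2 scale, averaged over both sets. That of inx-14 exceeded theirs by 2.66, 2.76 and 2.77. All 6 pairs had an exact two-sided p of 0.005, and 0.00714 adjusted by Benjamini and Hochberg over the 10 pairs. On the IP arrays inx-21, inx-8 and inx-9 lay at most 0.28 above the lowest value. These 6 p-values therefore repeat the results of inx-22 and inx-14 alone and are no further evidence. How much less inx-21, inx-8 and inx-9 were recovered cannot be measured at such signals. The measured changes of inx-22 and inx-14 differed by 0.93 in set 1 and 0.91 in set 2 (exact p = 0.005, adjusted 0.00714), and after quantile normalization by 0.58 with an adjusted exact p of 0.0643. Both genes had control IPs at the lowest value, so their changes may both be lower bounds and are not ranked here. The changes of inx-8 and inx-9 differed by 0.01 (exact p = 0.41, adjusted 0.41). The change of inx-21 exceeded those of inx-8 and inx-9 by 0.105 and 0.115 (exact p = 0.035 and 0.045, adjusted 0.0438 and 0.05), at signals close to the lowest values. After quantile normalization these excesses were 0.03 and 0.05 (adjusted exact p = 0.68 and 0.644).

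In input all 5 genes had signal above the lowest value. The inputs read 8.54, 8.14 and 8.87 for inx-22, 7.46, 6.57 and 7.95 for inx-14, and 6.88, 6.97 and 7.36 for inx-21. They read 7.07, 6.83 and 7.53 for inx-8, and 4.53, 4.26 and 4.43 for inx-9. The second inx-21 probe set read 4.77, 4.43 and 5.30. Inputs and IPs were amplified from different amounts of RNA, so the place of each probe set among all probe sets of its own array is given in place of a test. In bulk samples fewer cells of a type and less RNA per cell cannot be told apart.

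The inx-22 probe set stood above 96.7 to 97.7% of probe sets in the FLAG IPs of set 1 and 97.4 to 97.9% in the tagged IPs of set 2. In the MYC IPs that share was 62.4 to 88.5%, in the N2 IPs 58.6 to 88.0%, and in input 88.7 to 89.2%. The inx-14 probe set stood above 90.8 to 95.8% in the FLAG IPs of set 1 and 94.8 to 95.7% in the tagged IPs of set 2, against 77.8 to 81.0% in input. In the MYC and N2 IPs inx-14 stood above 0 to 67.5% and 0 to 72.9%. Both genes stood at a higher place on every tagged FLAG IP array than on any input array. However, 54.2 to 64.5% of probe sets were at the lowest value on tagged FLAG IP arrays, against 36.4 to 41.2% on inputs. A signal above the lowest value therefore takes a higher place on an IP array, and these places do not measure recovery over input. The inx-21 and inx-8 probe sets stood above 75.3 to 80.7% and 76.8 to 79.7% of probe sets in input. On 9 of the 12 IP arrays inx-8 held exactly the lowest value, while inx-21 (184609_at) stood 0.16 to 0.28 above it on 10 of the 12.

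No innexin gene outside the gonadal group was called. With the gonadal genes, 25 innexin genes were measured, and of the other 20 limma called 0 higher and 0 lower in either set (unadjusted p under 0.05: 0 higher in either set, 0 lower in set 1 and 2 lower in set 2). Of all 17118 genes 2.44% and 5.56% were called higher and 0.0701% and 0.169% lower in sets 1 and 2. The 0 of 20 is near those shares. Median changes of the other 20 were -0.01 in set 1 and -0.03 in set 2, against -0.03 and -0.03 over all 17118 genes. Over the 5 gonadal genes the medians were 0.09 and 0.07. Of the other 20 genes, 6 had an input mean of log2 5 or more. Among the 20, inx-11 alone had no overlap in both sets, with every FLAG array above every MYC array and every tagged array above every N2 array, as 5.06% of all genes had. Its changes were 0.12 ± 0.10 and 0.15 ± 0.10 (limma adjusted p = 0.461 and 0.307) at an input mean of 4.27. The highest inputs were those of inx-15, at 7.92 ± 0.38 (SD, n = 3), with changes of 0.02 ± 0.25 and -0.06 ± 0.25, and of inx-12, at 6.71 ± 0.26, with 0.10 ± 0.12 and 0.20 ± 0.12 (limma adjusted p = 0.962, 0.888, 0.607 and 0.252). In set 2 every tagged array lay above every N2 array for inx-12, as for 14.9% of all genes.

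**Figure D2:**
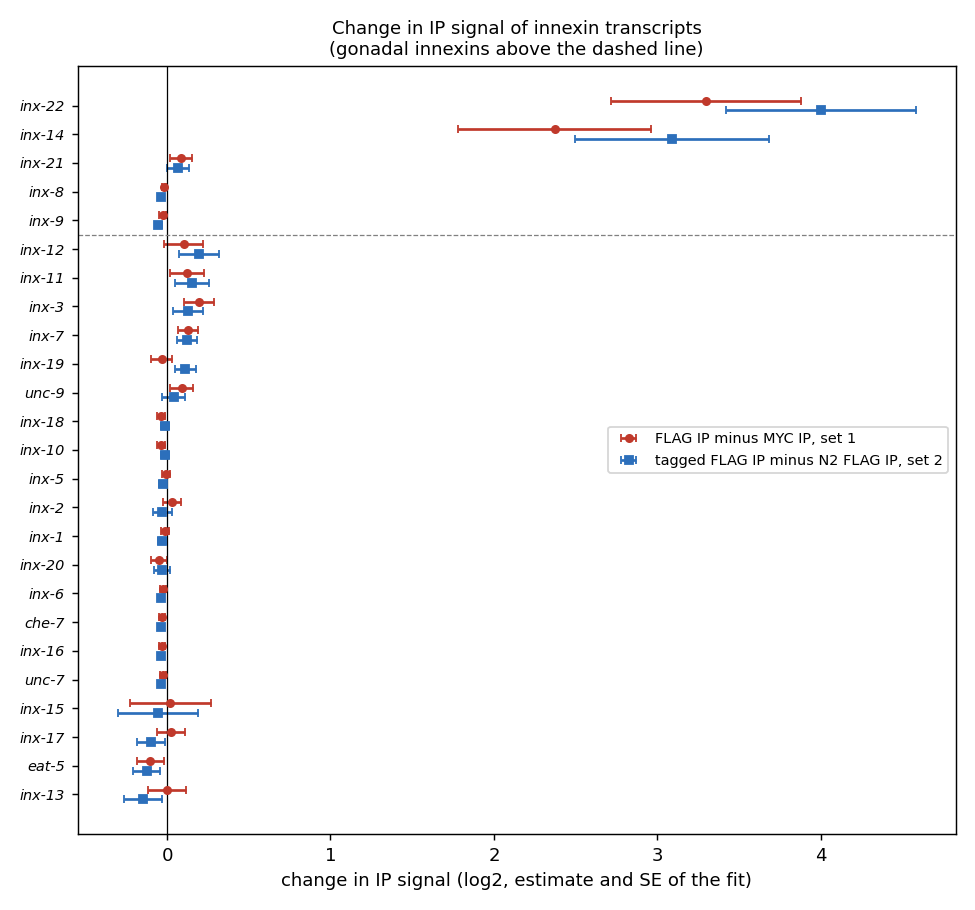
Change in IP signal (log2, estimate and SE of the limma fit) of the 25 innexin genes, the 5 gonadal ones above the dashed line. Red circles are FLAG minus MYC IPs of set 1 and blue squares tagged minus N2 IPs of set 2. The inx-22 estimates are 3.30 and 3.999 and those of inx-14 are 2.37 and 3.09, and no estimate of another innexin exceeds 0.196.

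Gap junctions take part in the control of oocyte maturation, in which sperm protein acts on sheath cells through a stimulatory G protein and cyclic AMP, and on oocytes through MAP kinase. A list of 18 measured genes held members of this signalling and oocyte regulators such as oma-1, oma-2 and lin-41. It had 7 called higher in set 1 and 8 in set 2, with 7 in both and 0 lower. The list was chosen with earlier results of these data known, so its counts are no test of the pathway. Of all genes 2.44%, 5.56% and 2.36% were called higher in set 1, in set 2 and in both. In the list 14 genes had an input mean of log2 5 or more, and of all such genes 6.34% and 14.2% were called higher in sets 1 and 2. Median changes of the list were 0.56 and 0.89. Called in both were oma-2 (6.65 and 8.17 in sets 1 and 2) and oma-1 (5.15 and 6.33), which encode zinc finger proteins needed for maturation. The others were the inhibitory G protein alpha subunit gene goa-1 (4.56 and 5.62), the beta subunit gene gpb-1 (3.93 and 5.15), the Raf kinase gene lin-45 (3.65 and 4.53), the MAP kinase gene mpk-1 (3.17 and 3.29) and the Eph receptor gene vab-1 (2.48 and 2.54). The call in set 2 alone was lin-41, which encodes a TRIM-NHL regulator of oocytes (0.44, limma adjusted p = 0.0337). Its means there were low, 3.08 in the tagged and 2.64 in the N2 IPs, the N2 mean being near the lowest values. Its set 1 change was -0.02 (limma adjusted p = 0.893).

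The other 10 listed genes were called in neither set, and the G protein genes goa-1 and gpb-1, called in both, are not among them. Of the stimulatory G protein and cyclic AMP genes, the alpha subunit gene gsa-1 changed by 0.03 and 0.06 in sets 1 and 2. The adenylate cyclase gene acy-4 had -0.03 and -0.06, and the protein kinase A catalytic gene kin-1 had -0.06 and -0.03. The kinase A regulatory gene kin-2 had 0.06 and 0.07, and the sheath homeobox gene ceh-18 had -0.03 and -0.03. Uncalled too were kinase pathway genes. The Ras gene let-60 had changes of 1.36 and 1.67 (limma adjusted p = 0.267 and 0.0908), the phosphatase gene ptp-2 had 0.90 and 1.24 (0.29 and 0.0691), and the MAP kinase kinase gene mek-2 had -0.04 and -0.04. The beta subunit gene gpb-2 had 0.21 and 0.53, and the glutamate receptor gene nmr-1 had -0.03 and -0.08. For let-60, ptp-2 and gpb-2 every tagged array lay above every N2 array in set 2, as for 14.9% of all genes. Input means over the 10 genes ran from 2.25 for nmr-1 to 9.45 for let-60, with 7.06 for gsa-1, 6.37 for ceh-18, 3.92 for acy-4, 3.69 for kin-1 and 2.60 for mek-2.

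**Figure D3:**
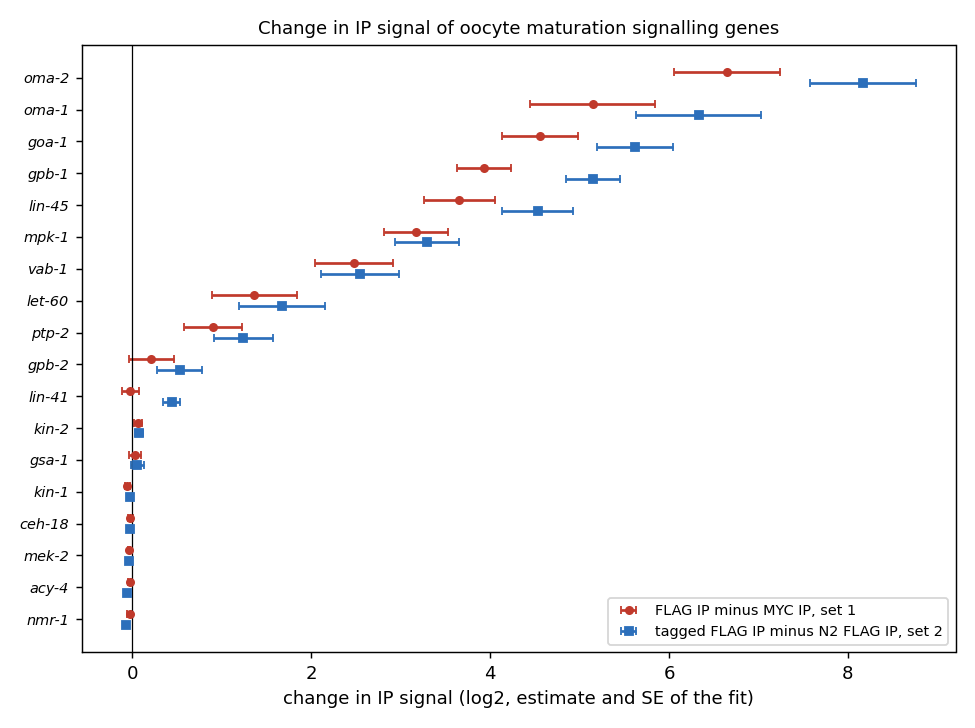
Change in IP signal (log2, estimate and SE of the limma fit) of the 18 measured oocyte maturation signalling genes, ordered by the set 2 change. Red circles are FLAG minus MYC IPs of set 1 and blue squares tagged minus N2 IPs of set 2. The estimates run up to 6.65 and 8.17 for oma-2, and those of let-60, at 1.36 and 1.67, are the highest among the 10 genes not called.

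Marker lists of the cell types in a whole worm were followed beside the innexins. These lists too were chosen with earlier results of these data known, so their counts are no test of a cell type. Of 10 oocyte and germline markers limma called 5 higher in set 1 and 7 in set 2, where 2.44% and 5.56% of all genes were. All 10 had an input mean of log2 5 or more, and of all such genes 6.34% and 14.2% were called higher. Called in neither set were glh-1 (changes 0.435 and 0.834), him-3 (1.05 and 1.49) and htp-3 (0.22 and 0.29). Their input means were 11.36, 8.97 and 8.80. The mean log2 signal over the list was 6.19 to 8.19 in FLAG against 3.53 to 5.35 in MYC IPs. It was 7.78 to 8.54 in tagged against 3.78 to 4.61 in N2 IPs, and 10.31 to 10.66 in input. Of 6 somatic gonad markers 0 were called in either direction in either set (0 also at an unadjusted p under 0.05). That is near the shares of all genes. The mean signal of these 6 was 2.93 to 3.26 in FLAG against 2.79 to 2.99 in MYC IPs. It was 3.09 to 3.14 in tagged against 2.80 to 3.02 in N2 IPs, and 4.49 to 4.98 in input. Among them the distal tip cell ligand gene lag-2 and the protease gene gon-1 were near the lowest value in input too (2.25 and 2.25), and the sheath gene lim-7 had an input mean of 3.24. The highest input in the list was the 9.76 of mig-6, which encodes a papilin-like matrix protein. Its changes were 1.26 ± 0.59 and 1.26 ± 0.59 (limma adjusted p = 0.322 and 0.155). Every tagged array lay above every N2 array in set 2, as for 14.9% of all genes. The differences of the other 5 markers lay between -0.08 and 0.03 in both sets.

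Of the sperm, intestine, body wall muscle and hypodermis lists (7, 7, 7 and 6 genes) limma called 0 in either direction in either set, and at an unadjusted p under 0.05 only 1 muscle gene, lower in set 2. Of all genes 2.44% and 5.56% were called higher in sets 1 and 2, so 0 calls in lists of 6 or 7 are near these shares. Of 7 neuron markers limma called 2 higher in set 2, snb-1 (3.64) and unc-119 (2.84), where 5.56% of all genes were. In set 1 it called 0 (2 higher at an unadjusted p under 0.05). Ribosomal protein genes were taken as a measure of background RNA, a use that was not tested. Their array medians were 6.73 to 7.81 in tagged against 6.44 to 7.98 in N2 IPs. In set 1 they were 5.75 to 9.85 in FLAG against 6.51 to 9.40 in MYC IPs. The part of germline marker signal in the inx-22 and inx-14 differences was not tested.

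The genes whose means over the 5 groups followed those of each called innexin most closely were sought among 1241 other genes that reached log2 5 in an IP group mean. Likeness was the root mean square difference over the 5 group means, after each gene's own mean was subtracted. Closest to inx-22 were D2030.8 (0.034), bath-44 (0.061) and C50B6.3 (0.107), where the median gene lay at 0.872. The set 1 and set 2 changes were 3.31 and 3.94 for D2030.8, 3.40 and 3.96 for bath-44, and 3.07 and 4.05 for C50B6.3. Closest to inx-14 were gla-3 (0.044), which encodes a TIS11-like zinc finger protein that acts in germ cell apoptosis, ttc-17 (0.071) and F59B2.3 (0.098), with a median gene at 0.795. Their changes were 2.25 and 3.13, 2.48 and 3.04, and 2.24 and 3.34. The inx-14 and inx-22 patterns differed from each other by 0.45, which placed inx-14 at rank 201 among the genes nearest to inx-22. These likenesses describe 5 means each and carry no test.

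**Figure D4:**
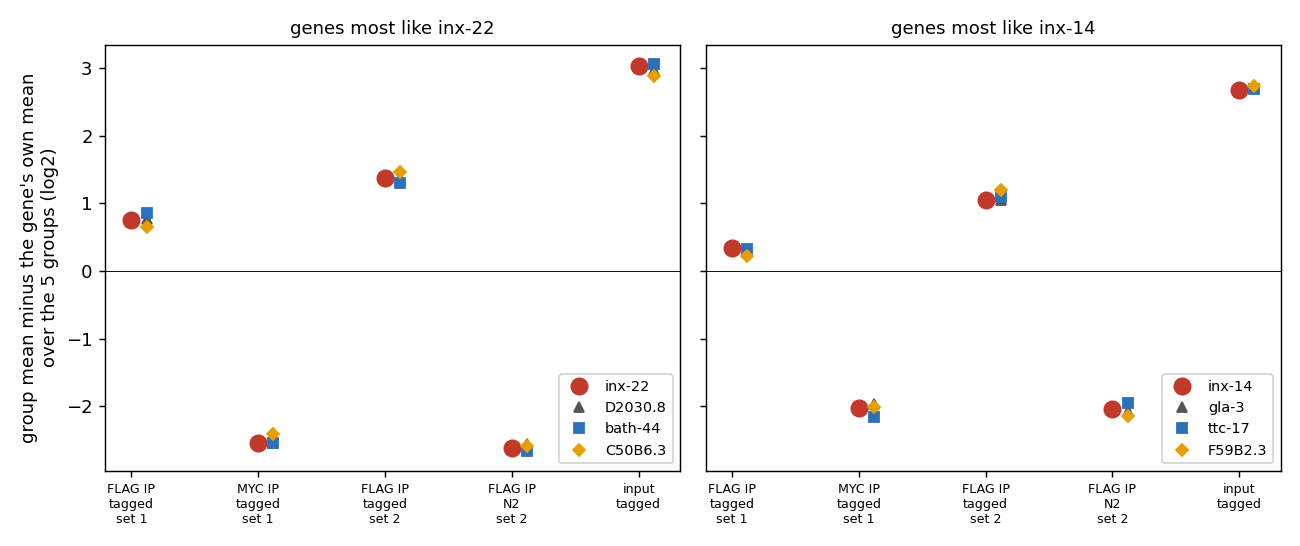
Means of the 5 groups minus each gene's own mean over them (log2) for inx-22 and inx-14 (red circles) and the 3 genes most like each. Each tagged FLAG IP group stands left of its control IP group, and input stands last. The root mean square differences are at most 0.107.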

How the data were processed

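RNA from 12 IPs and 3 inputs was measured on 15 arrays. The authors deposited log2 values, made with GCRMA, per the submitters' processing notes (version and settings not given in the sources used here). Each IP received 10 µg of mouse brain carrier RNA and 5 µg of every input was labelled, per the labels' protocols. Groups and replicate numbers came from sample titles, and 0 value columns lacked a sample.

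Of all probe sets, 77 array controls were left out. The platform annotation gave 20766 of the 22548 others 1 gene symbol, 887 several and 895 none. A gene was represented by its own probe set with the highest mean over 15 arrays. All 6 member probe sets matched RefSeq (WBcel235) by Entrez ID, which gave names, chromosomes and neighbours.

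The software was R 4.3.3 with limma 3.58.1 (group means by lmFit, then eBayes; 8 residual and 0.849 prior degrees of freedom). No normalization or filter was added. Single genes and pairs were tested by exact permutation within sets. The fit and the permutation were tested on simulated data with independent normal noise. These held no shared lowest values and no shifts of whole arrays, so calls near the lowest value were not covered. The number of arrays limits precision.

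Alternatives were a fit on only 6 arrays or on all 15, the replicate number as a block, quantile normalization, cyclic loess, ribosomal protein centring, a filter at log2 5 on 3 IP arrays, trend with robust eBayes, array weights, a gene's mean over probe sets, and each array left out. Subtracting each array's lowest value was added after seeing the data.

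Named genes were the members, gld-1, listed family and pathway genes called in both sets (or, with none, the 2 with the highest input) and the 3 genes most like each called member. Single marker genes, inx-11, lin-41 and the uncalled signalling genes were named after their values were seen. Members and lists were chosen with earlier results of these data known.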

Additional observations from a re-analysis of the deposited data

How the results depend on the processing

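The inx-22 and inx-14 differences were positive in both sets under all 22 alternatives, from 1.77 to 4.35 and 1.94 to 4.24 for inx-22 in sets 1 and 2, and from 1.37 to 3.38 and 1.804 to 3.38 for inx-14. Gonadal innexin genes called higher in set 1 numbered 0 with the 6 arrays of the comparison and with ribosomal protein centring, 2 after quantile normalization, with the filter and with trend and robust eBayes, and 3 with array weights. In set 2 they numbered 1 with ribosomal protein centring. With each array left out they numbered 0 to 2 and 1 to 2 in sets 1 and 2.

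Over all probe sets the calls were 543 higher and 13 lower in set 1 and 1233 and 39 in set 2. With the 6 arrays of the comparison they were 0 and 0 (unadjusted p under 0.05 in that limma fit: 1277 and 199) and 2601 and 6460. Array weights gave 6224 and 12432, and 3195 and 7995. Ribosomal protein centring gave 199 and 0, and 385 and 0 (0 lower also at an unadjusted p under 0.05 in limma). The filter gave 933 higher and 0 lower in set 1 and 0 lower in set 2 (0 lower also unadjusted in limma), among fewer probe sets tested. Lower calls were 2 and 6 with all 15 arrays, 350 and 579 after quantile normalization, 366 and 598 after cyclic loess, 7 and 87 with trend and robust eBayes, and 10 in set 2 with lowest values subtracted. Without 1 array, set 1 had 196 to 2090 higher and 4 to 442 lower, and set 2 had 669 to 1933 and 15 to 175. The test of the difference between sets called 2 probe sets with all 15 arrays and 2 after quantile normalization. Beyond fewer arrays or probe sets, the cause was not tested.

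The replicate number as a block within each set gave 2626 higher and 5529 lower in set 2, and changed no call of inx-22 or inx-14. In set 2 limma called inx-8 and inx-9 lower by 0.04 and 0.05 with the block (adjusted p = 0.0393 and 0.0467), with the 6 arrays of the comparison (0.0318 and 0.0433) and with array weights (0.00553 and 0.00694). Array weights also called both lower by 0.04 in set 1 (1.16e-06 and 1.69e-05). Deviations from group means of same-numbered arrays correlated at 0.515, 0.045 and 0.702 in set 1 and 0.08, 0.002 and 0.239 in set 2. Those of differently numbered arrays ran from -0.705 to 0.427 in set 1 and from -0.274 to 0.193 in set 2. Ribosomal protein medians rose with the replicate number in both groups of set 1 and fell with it in both groups of set 2. The main fit did not use the numbers, and whether they pair the arrays was not tested.

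Sign changes arose for inx-8, inx-9 and inx-21, whose IP signals lay at most 0.28 above the lowest value, and not for inx-22 or inx-14. For inx-8 in set 1 they were 0.008 after quantile normalization, 0.011 after cyclic loess and 0.011 with lowest values subtracted, and for inx-9 0.003 after cyclic loess and 0.004 with lowest values subtracted. For inx-21 (184609_at) in set 2 they were -0.022 after quantile normalization, -0.082 with ribosomal protein centring, and -0.001 (without N2 replicate 2) to 0.12 with 1 array left out. For 175499_s_at they were 0.021 in set 2 with lowest values subtracted and -0.027 (without MYC replicate 2) to 0.068 in set 1 with 1 array left out. The mean over both sets was 0.004 for inx-8 and -0.01 for inx-9 after quantile normalization (exact p = 0.4 and 0.475). With lowest values subtracted it was 0.005 for inx-8, -0.005 for inx-9 and 0.111 for inx-21. After quantile normalization inx-21 minus inx-8 was 0.032 and inx-22 minus inx-14 was 0.578, neither called (adjusted exact p = 0.68 and 0.0643).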
